A study of Mus musculus with 2 samples.

Results

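Thyroid hormone supply and response was followed through 9 genes taken from a fixed list and matched by symbol in the gene and transcript tables, out of 55536 annotated genes. The genes were Ttr, Crym, Slco1c1, Dio2, Dio3, Thra, Thrb, Hr and Klf9, and each matched a single gene identifier. RNA came from the left cerebral cortex of 2 male B6CASTF1/J mice, the F1 hybrid of B6 and Cast parents, aged 4 days. Each animal gave 1 total RNA library, made from 300 ng of RNA after reduction of ribosomal RNA, with ERCC spike-in RNAs added. The mice carried no named transgene and received no named treatment, no other group was sampled, and no comparison between conditions exists. The labels give separate animal numbers and tissue samples to the libraries but a shared donor identifier, so SDs measure only the spread between these samples, which may be technical, and p-values cover counting error only.

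Thyroid hormone is made in the thyroid mainly as thyroxine (T4), a precursor with weak receptor affinity. It travels in blood and cerebrospinal fluid on carrier proteins such as transthyretin and enters brain cells through membrane transporters. Deiodinases inside cells convert it to the active triiodothyronine (T3) or inactivate it. T3 binds nuclear receptors that sit on DNA with retinoid X receptors and that recruit coactivators, or corepressors when no hormone is bound. In the rodent cortex the first postnatal weeks are a period in which neuronal maturation and myelination depend on this hormone.

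The coding ends of the Thra transcripts are shown first because they decide whether a receptor can bind T3. Thra makes alpha 1, which binds hormone, and alpha 2, whose different C-terminal end does not bind T3. Each line below gives the last 30 coding bases of the shared exons in lower case and the next 120 coding bases in capitals, read from the mm10 genome along GENCODE M21 transcripts.
Thra-202: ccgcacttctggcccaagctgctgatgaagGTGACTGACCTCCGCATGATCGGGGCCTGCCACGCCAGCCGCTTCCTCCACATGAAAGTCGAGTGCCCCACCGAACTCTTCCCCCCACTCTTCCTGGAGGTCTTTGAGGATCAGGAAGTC
Thra-201: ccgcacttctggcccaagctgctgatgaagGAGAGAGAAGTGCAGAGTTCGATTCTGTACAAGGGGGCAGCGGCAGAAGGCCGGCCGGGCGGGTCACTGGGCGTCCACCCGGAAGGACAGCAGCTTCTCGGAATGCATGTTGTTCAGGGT
Thra-203: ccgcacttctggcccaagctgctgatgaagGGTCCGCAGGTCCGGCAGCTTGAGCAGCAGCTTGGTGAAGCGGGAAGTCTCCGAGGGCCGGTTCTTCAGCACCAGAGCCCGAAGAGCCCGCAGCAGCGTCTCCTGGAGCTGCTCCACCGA
Thra-202 is the alpha 1 transcript, with 410 codons, and its capitals lie at chr11:98764406-98764525 on the plus strand. Thra-201 is the alpha 2 transcript, with 492 codons, and its capitals lie at chr11:98768157-98768276. Both share 370 codons, up to position 98764405. The alpha 1 end runs straight on in the same exon and begins with GT, the letters at which the intron of the alpha 2 transcripts starts. The alpha 2 end is a separate last exon of 850 bases, of which 366 are coding. Thra-203 skips the first 117 bases of that exon, its capitals lie at chr11:98768274-98768393, and its annotated coding sequence is incomplete at the 3′ end. It was counted with alpha 2 because its coding end lies in the same last exon.

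**Figure D1:**
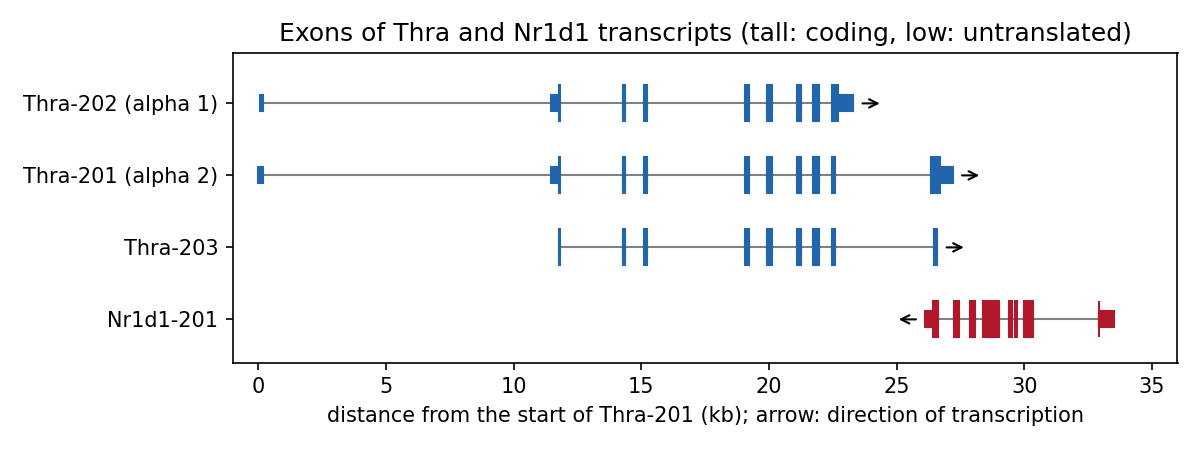
Exons of the Thra transcripts with alpha 1 and alpha 2 coding ends and of the coding transcript of Nr1d1, by distance in kb from the start of Thra-201; tall boxes are coding, low boxes untranslated and arrows give the direction of transcription. The last exon of Thra-201 lies over the last exon of Nr1d1, which runs on the other strand, and the end of Thra-202 does not.

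A second set of sequences shows the codon that makes deiodinases unusual. The type 2 enzyme encoded by Dio2 activates T4 to T3, and the type 3 enzyme encoded by Dio3 inactivates both hormones. Each carries selenocysteine in its active site, encoded by a TGA that elsewhere would stop translation. The TGA is in capitals, with 30 coding bases on each side.
Dio2: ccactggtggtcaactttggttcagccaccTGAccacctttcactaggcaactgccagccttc
Dio3, longer transcript: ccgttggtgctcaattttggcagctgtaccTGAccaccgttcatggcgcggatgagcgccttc
The Dio2 codon is number 130 of 266, at chr12:90729823-90729825 on the minus strand, and a further selenocysteine codon is number 263. In the longer Dio3 transcript the codon is number 170 of 304, at chr12:110279739-110279741 on the plus strand. The shorter coding transcript of Dio3 has 131 codons.

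Thrb has alternative first exons, which give its receptors different N-terminal ends. The first 60 coding bases of both forms are shown, with the start codon in capitals.
Thrb-201: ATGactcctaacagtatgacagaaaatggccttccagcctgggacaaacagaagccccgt
Thrb-202: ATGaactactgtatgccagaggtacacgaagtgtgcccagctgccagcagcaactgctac
Thrb-201 encodes 461 codons, the length of beta 1, and its start codon begins at chr14 position 17925638. Thrb-202 encodes 475 codons, the length of beta 2, a form known from pituitary, hypothalamus and retina, and its own first coding exon lies at chr14:17981877-17982201. The transcript starts are 320633 bases apart, and the forms share 1100 coding bases.

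The last pair of sequences separates the most abundant Slco1c1 transcript from the full-length one. Slco1c1 encodes a thyroxine transporter of brain capillaries and astrocytes. In the full-length transcript (ENSMUST00000032362.11) the capitals mark 41 bases at the start of exon 11, chr6:141559741-141559781 on the plus strand. The other transcript (ENSMUST00000135562.7) skips them and reaches the TAA in capitals after 16 coding bases, which leaves 469 of 715 codons.
Slco1c1, full-length transcript: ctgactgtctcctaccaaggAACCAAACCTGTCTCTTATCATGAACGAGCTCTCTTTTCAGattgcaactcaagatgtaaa
Slco1c1, skipping transcript: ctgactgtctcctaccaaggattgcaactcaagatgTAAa

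Levels are given as TPM, the share of a library that a transcript takes after correction for its length, so that levels of different genes can be set side by side. Expected counts summed to 26897687 for replicate 1 and to 29511737 for replicate 2, and spike-in RNAs made up 0.323% and 0.351% of them. A floor of 3 counts corresponded to 0.112 and 0.102 CPM (counts scaled to the library total), for counting error only. All 8 cortex markers were detected in each library, with Slc17a7, the vesicular glutamate transporter of cortical neurons, at 146 ± 18.2 TPM (SD, n = 2). Of these 8, 2 were higher in replicate 2 and 3 lower, by the exact binomial test described below. The libraries also differed in markers of other tissues and cells. In replicate 2, 4 of 5 tested markers of olfactory bulb output neurons, 8 of 9 of striatum and 5 of 6 of red blood cells were higher, beside 13.9% of all tested genes, and none of these 3 lists had a marker that was lower. Their summed levels went from 8.73 to 40.3, from 143 to 198 and from 216 to 456 TPM. The part of these differences in the results on the thyroid hormone genes was not tested, and fewer cells of a type cannot be told apart from less RNA per cell in such bulk samples.

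Of the 9 genes, 8 were detected at 1 TPM or more in each library, against 59.4% of protein-coding genes and 28% of all annotated genes. Dio3 was the exception. Together the 9 genes summed to 776 TPM in replicate 1 and 743 TPM in replicate 2, and Thra alone made up 83.0% and 81.4% of that sum. The order of mean levels ran from Thra through Crym, Slco1c1, Klf9, Ttr, Thrb, Hr and Dio2 to Dio3. Neighbours in this order did not overlap between the libraries for Thra over Crym, Crym over Slco1c1, Thrb over Hr and Dio2 over Dio3. Slco1c1 and Klf9, Klf9 and Ttr, Ttr and Thrb, and Hr and Dio2 overlapped. Thra, Crym, Slco1c1 and Klf9 lay above 17.6 TPM, the median of the 13084 detected protein-coding genes.

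**Figure D2:**
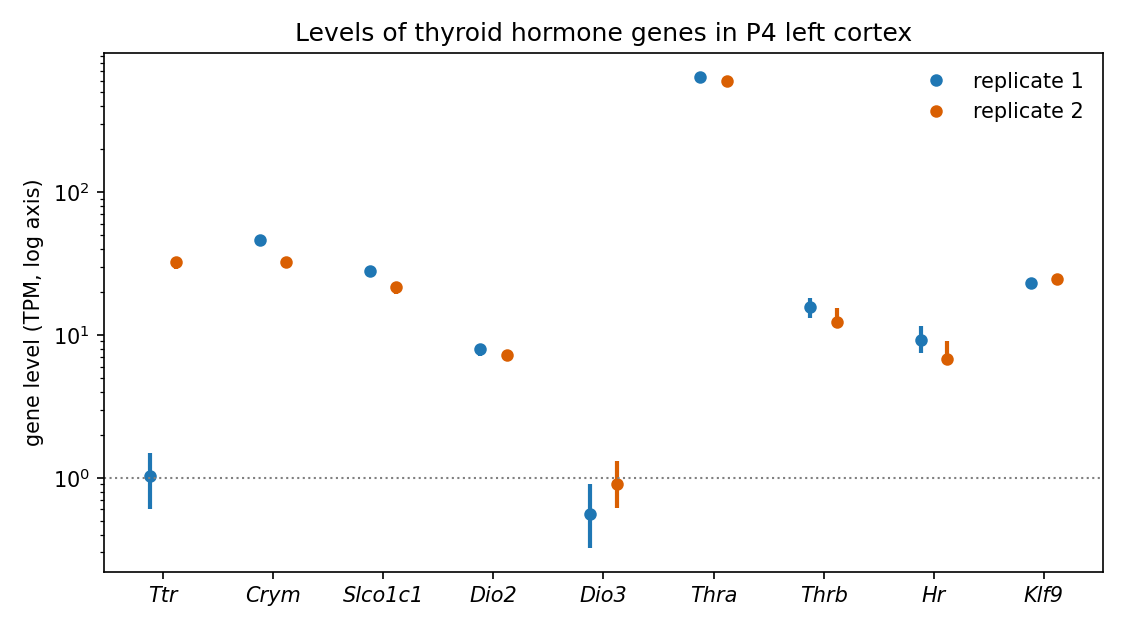
Level of each of the 9 genes in TPM on a log axis, 1 point per library, with the deposited interval of each value as a bar and the detection level of 1 TPM as a dotted line. Thra stands above all others at 644 and 604 TPM, Dio3 lies under 1 TPM in each library, and the points of Ttr are at 1.03 and 32.4 TPM.

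Between the libraries, 4 of the 9 genes differed beyond counting error, and 26.7% of all 20385 tested genes did so by the same rule. Ttr and Klf9 were higher in replicate 2, where 13.9% of all genes were, and Crym and Slco1c1 were lower, where 12.8% of all genes were. The test was a two-sided exact binomial test on scaled counts, with Benjamini-Hochberg adjustment over all tested genes. It compares these libraries and not conditions. Ttr was the only one of the 9 with a difference of 2-fold or more that passed, and 2.38% of all genes had such a difference. With scaling by total counts Thra also passed, as lower in replicate 2 (adjusted p = 0.00431 by the exact binomial test), and the share of calls that were higher in replicate 2 moved from 52.1% to 41.9%. Thra passed as well when protein-coding genes alone were scaled and tested (adjusted p = 0.0160 by the exact binomial test), with a log2 ratio of -0.04.

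**Figure D3:**
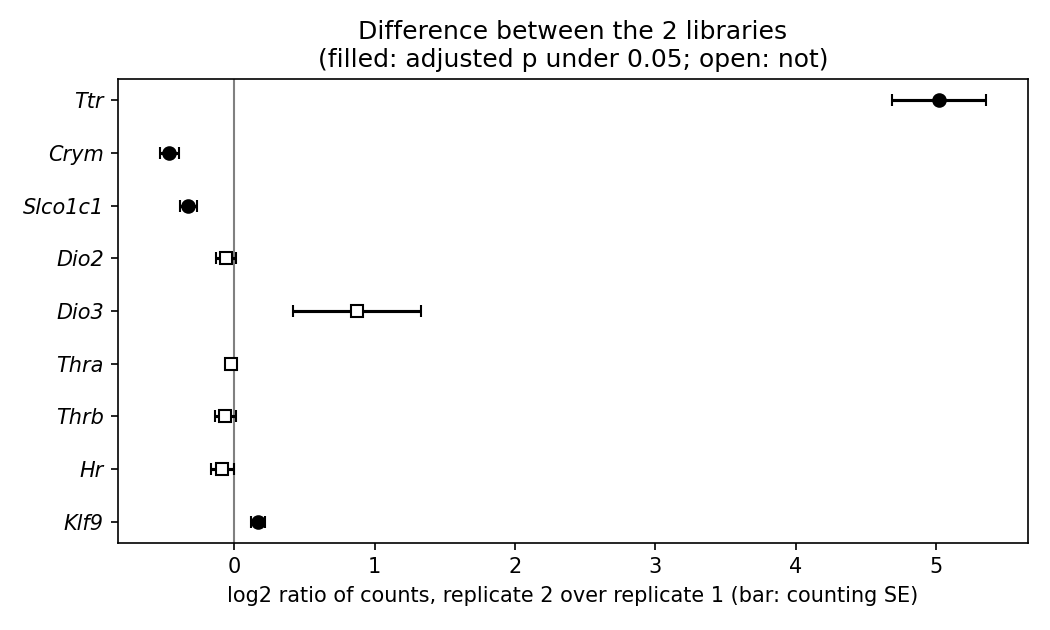
Log2 ratio of scaled counts, replicate 2 over replicate 1, for each of the 9 genes, with the counting standard error as a bar; filled points passed the exact binomial test after adjustment and open points did not. Ttr lies at 5.02, far from the other genes, which lie between -0.46 and 0.87.

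Among the carrier and binding proteins, Ttr was low in replicate 1 and far higher in replicate 2. Ttr (ENSMUSG00000061808.4, chr18:20665280-20674321, plus strand) encodes transthyretin, which carries T4 and is made in the choroid plexus and the liver. Its reads numbered 19 in replicate 1 and 679 in replicate 2, and its level was 1.03 and 32.4 TPM. The deposited intervals of the 2 values did not overlap. The log2 ratio of counts was 5.02 (SE 0.336; adjusted p = 4.47e-160, exact binomial test), a 32.4-fold difference. A mean of 16.7 ± 22.2 TPM therefore describes neither library. The other quantification of the same reads gave 1.66 and 47.6 TPM. The antisense gene Gm16090, next to Ttr, held 1 count in each library.

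Other markers of the choroid plexus did not move with Ttr to the same extent, and several of them held few reads. Of 10 tested without Ttr, 1 was higher in replicate 2 and none lower, beside 13.9% and 12.8% of all tested genes. Of the 14 listed, 3 were detected and none was at 0. Their summed level was 30.3 TPM in replicate 1 and 33.1 TPM in replicate 2, and most of it came from Enpp2, the gene of the enzyme autotaxin, also made outside the choroid plexus, at 24.0 and 25.4 TPM. The gene that passed was Clic6, a chloride channel family member, with 14 and 42 counts and a log2 ratio of 1.45 (adjusted p = 0.00289, exact binomial test). The folate receptor gene Folr1 had 3 and 6 counts, and Kl, the gene of klotho, had 45 and 48. The potassium channel subunit gene Kcne2 had 2 and 12, a log2 ratio of 2.23 that did not pass (adjusted p = 0.0512, exact binomial test). Sostdc1 went the other way without passing, with 64 and 52 counts and a log2 ratio of -0.40. Otx2, a transcription factor of the choroid plexus, had 3 and 5 counts, so that it and Folr1 were near the floor of 3 counts in each library. The median log2 ratio of the 10 tested markers was 0.14, beside -0.00 over all tested genes.

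None of the 6 tested markers of ependymal cells, which line the ventricles, was higher in replicate 2, beside 13.9% of all tested genes. Foxj1, the regulator of motile cilia, was lower, as were 12.8% of all tested genes. The summed level of the 6 markers was 16.5 TPM in replicate 1 and 11.1 TPM in replicate 2. Of the other liver genes, Alb, the gene of albumin, had 26 and 31 counts, Apoa1, an apolipoprotein gene, had 11 and 11, and Serpina1a had 0 in each. Ahsg, the gene of fetuin A, passed in the direction of Ttr, with 2 and 14 counts. Whether choroid plexus, liver or blood RNA had a part in the Ttr difference was not tested.

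The genes with patterns most like that of Ttr were taken as the protein-coding genes with 50 or more counts and the largest ratio toward replicate 2, over 2 libraries and 13679 genes. Ttr ranked 2 among them. Gm45837 ranked 1, with 0 and 74.6 counts, a value that is not whole and so may include reads shared with other genes. Ms4a15 followed with 3 and 75 counts, then Tbx21, a transcription factor of olfactory bulb output neurons, with 4 and 83, and Frmd7 with 9 and 131. Prss56 had 7 and 56 counts. The log2 ratios of Ms4a15, Tbx21, Frmd7 and Prss56 were 4.33, 4.12, 3.69 and 2.81. Ttr had the most reads of these genes in replicate 2.

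**Figure D4:**
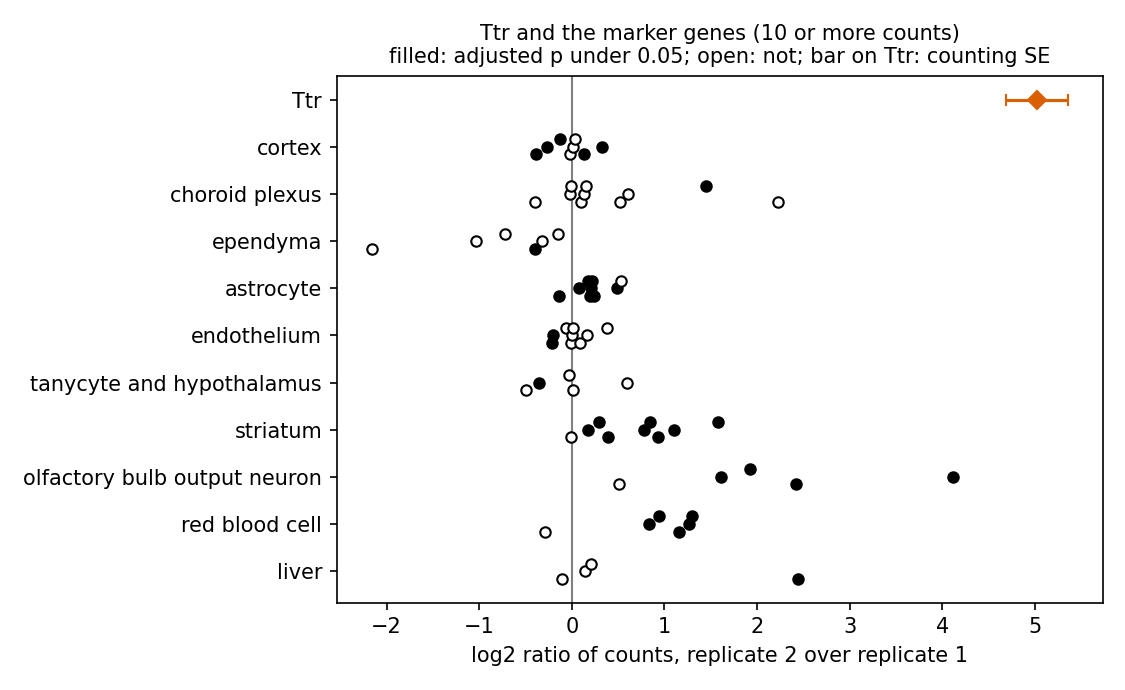
Log2 ratio of scaled counts, replicate 2 over replicate 1, for Ttr, with its counting standard error, and for each marker gene with 10 or more counts, by list; filled points passed the exact binomial test after adjustment and open points did not. Ttr lies at 5.02, and the points of the choroid plexus list have a median of 0.14 and those of the olfactory bulb list a median of 1.92.

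Crym, also the gene of a binding protein, was higher in replicate 1. It stood above Ttr in replicate 1, at 46.5 against 1.03 TPM, but not in replicate 2, where each was at 32.4 TPM. Crym (ENSMUSG00000030905.5, chr7:120186380-120202111, minus strand) encodes mu-crystallin, which binds T3 in the cytosol. It had 1044 and 815 counts and stood at 46.5 and 32.4 TPM, or 39.4 ± 9.96 TPM (SD, n = 2), above 74.9% of detected protein-coding genes. The log2 ratio was -0.46 (SE 0.0674; adjusted p = 2.05e-10, exact binomial test), so that replicate 1 was 1.38-fold higher. The level was 61.5 ± 14.6 TPM in the other quantification. Crym-201, the coding transcript of 313 codons, made up 97.8 ± 0.710% of the TPM of the gene. Crym is also known from striatal and cortical neurons, and striatal markers went the other way between the libraries. The part of striatal and cortical neuron content in the Crym difference was not tested.

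Slco1c1 was the transporter among the 9 genes, and it was also higher in replicate 1. Slco1c1 (ENSMUSG00000030235.17, chr6:141524368-141570177, plus strand) had 1241 and 1064 counts and stood at 27.9 and 21.5 TPM, or 24.7 ± 4.56 TPM (SD, n = 2). The log2 ratio was -0.33 (SE 0.0603; adjusted p = 9.49e-07, exact binomial test), and replicate 1 was 1.25-fold higher. Of 9 tested markers of the endothelium, where this transporter sits, Cldn5, a tight junction gene, and Flt1, a receptor for vascular growth factors, were lower in replicate 2 and none was higher. The summed endothelial level was 128 and 118 TPM. Astrocyte markers went up instead, with 7 of 9 higher and 1 lower, and sums of 571 and 591 TPM. Of all tested genes, 13.9% were higher in replicate 2 and 12.8% lower. The part of endothelial and astrocyte content in the Slco1c1 difference was not tested.

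Most of the Slco1c1 signal was assigned to transcripts that are annotated as targets of nonsense-mediated decay, the pathway that removes RNAs with early stop codons. The transcript that lacks the 41 bases shown above stood at 15.5 and 14.0 TPM, or 55.4% and 65.0% of the gene. The full-length transcript stood at 4.84 and 1.94 TPM. Together with ENSMUST00000204998.2 the decay transcripts made up 65.8 ± 6.65% of the gene, and coding transcripts 30.2 ± 6.50%. The other quantification gave 76.5 ± 7.42% and 20.2 ± 7.11%. In each library and each quantification the decay share was the larger. Transcript shares are estimates where reads fall in shared exons, and the reads over the 41 bases themselves were not counted here.

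Among the other transporters, the heterodimer of Slc3a2 and Slc7a5, an amino acid exchanger that also moves thyroid hormone, had the highest levels, at 83.7 ± 0.940 and 78.4 ± 2.98 TPM (SD, n = 2). Slco3a1 stood at 36.2 ± 3.27 TPM. Of 12 listed transporter genes, 9 were detected, and the lowest detected was Slco4a1 at 1.24 ± 0.0495 TPM. Between the libraries 3 of 9 tested were higher in replicate 2, Slc7a5, Slc7a8 and Slc3a2, and 1, Slco1c1, was lower, beside 13.9% and 12.8% of all tested genes. The median level of the 9 was 24.7 TPM, beside 17.6 TPM over all detected protein-coding genes.

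The deiodinase genes differed in RNA level, with that of the activating enzyme well above that of the inactivating one. Dio2 (ENSMUSG00000007682.6, chr12:90724552-90738438, minus strand) had 774 and 799 counts and stood at 7.95 and 7.26 TPM, or 7.61 ± 0.488 TPM (SD, n = 2). Its log2 ratio between the libraries was -0.06 (SE 0.0728, adjusted p = 0.623 by the exact binomial test), with an interval from -0.20 to 0.08. Dio3 (ENSMUSG00000075707.5, chr12:110279068-110281097, plus strand) had 15 and 30 counts and stood at 0.56 and 0.91 TPM, under the detection level in each library. Its log2 ratio was 0.87 (SE 0.456, adjusted p = 0.146 by the exact binomial test), and its interval ran from -0.02 to 1.77.

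Within each library Dio2 exceeded Dio3, by 3.61 and 2.87 on the log2 scale of TPM. The mean was 3.24 ± 0.53, a 9.43-fold difference, and with a pseudocount of 1 TPM in place of 0.1 it was 2.32. Dio2 is known from astrocytes and tanycytes. Of 7 markers of tanycytes and hypothalamus, 2 were detected, Vcan at 69.1 ± 10.9 TPM and Col23a1 at 5.37 ± 0.262 TPM, Adm had 25 and 19 counts, and Rax, a defining transcription factor of tanycytes, had 0 in each library. The summed level of that list was 85.2 TPM in replicate 1 and 69.5 TPM in replicate 2. Most of it came from Vcan alone, at 76.7 and 61.4 TPM. Of 5 tested markers of that list, Vcan was lower in replicate 2, with a log2 ratio of -0.36, and none was higher. Of all tested genes, 12.8% were lower and 13.9% higher. The hypothalamic genes Pomc and Agrp had 12 and 13 counts and 1 and 2 counts. All 9 astrocyte markers were detected, and which cells the Dio2 reads came from was not tested. Dio1, the deiodinase of liver and kidney, had 0 counts in each library. All Dio2 signal lay in the single annotated transcript, of 5815 bases. The Dio3 signal was split between the longer transcript, at 0.21 and 0.57 TPM, and the shorter one, at 0.35 and 0.34 TPM. Each is a single exon. The shorter one, chr12:110279260-110280708, lies inside the longer one and also spans the TGA bases shown above. The longer was assigned 7.03 and 21.28 counts and the shorter 7.97 and 8.72. Every base of the shorter transcript is shared, so the split is an estimate from few reads.

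Genes that share a region with the deiodinases were lower still. Dio3os, the opposite-strand gene beside Dio3, had 0 and 3 counts. Gm26512, which overlaps the 5′ end of Dio2 on the other strand, had 6 and 15 counts. The factors that place selenocysteine were all detected, with Sephs2, the selenophosphate synthetase, at 23.0 ± 2.20 TPM (SD, n = 2), Trnau1ap, which associates with the selenocysteine tRNA, at 20.7 ± 4.09 TPM, and Secisbp2, which binds the selenocysteine insertion element, at 11.0 ± 1.02 TPM.

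In the whole list of binding proteins and metabolism, 12 of 17 genes were detected, beside 59.4% of protein-coding genes. Of 15 tested, 3 were higher in replicate 2 and 2 lower, near the 13.9% and 12.8% of all tested genes. The highest was Pkm, the gene of a glycolytic enzyme that can also bind T3, at 269 ± 15.4 TPM (SD, n = 2). The lowest detected was Sult1a1, a sulfotransferase that acts on thyroid hormone, at 1.40 ± 0.212 TPM. Serpina7, the gene of thyroxine-binding globulin, had 0 and 2 counts. The median log2 ratio of the list was 0.07.

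Thra was by far the most abundant of the 9 genes. Thra (ENSMUSG00000058756.13, chr11:98740638-98769006, plus strand) had 20659 and 21926 counts and stood at 644 and 604 TPM, or 624 ± 28.3 TPM (SD, n = 2), above 99.5% of detected protein-coding genes. Its log2 ratio between the libraries was -0.02 (SE 0.0140, adjusted p = 0.354 by the exact binomial test), and 0.03 in the other quantification. Thrb (ENSMUSG00000021779.17, chr14:17660261-18038090, plus strand) had 789 and 813 counts and stood at 15.7 and 12.4 TPM, or 14.0 ± 2.36 TPM. Its log2 ratio was -0.06 (SE 0.0721, adjusted p = 0.600 by the exact binomial test). Thra exceeded Thrb by 5.35 and 5.60 on the log2 scale of TPM, a mean of 5.47 ± 0.18, or 44.5-fold.

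The Thra signal was mostly alpha 2. Thra-201 stood at 353 and 330 TPM, or 341 ± 16.0 TPM (SD, n = 2), and Thra-202, the alpha 1 transcript, at 87.4 and 77.3 TPM, or 82.3 ± 7.12 TPM. Thra-203 added 147 and 150 TPM to the alpha 2 type. Alpha 2 transcripts together held 490 ± 13.6 TPM, which was 85.1% and 86.1% of the TPM in coding Thra transcripts. Their level was 5.97 ± 0.351 times that of alpha 1. The alpha 1 transcript alone stood above the whole of Thrb in each library.

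**Figure D5:**
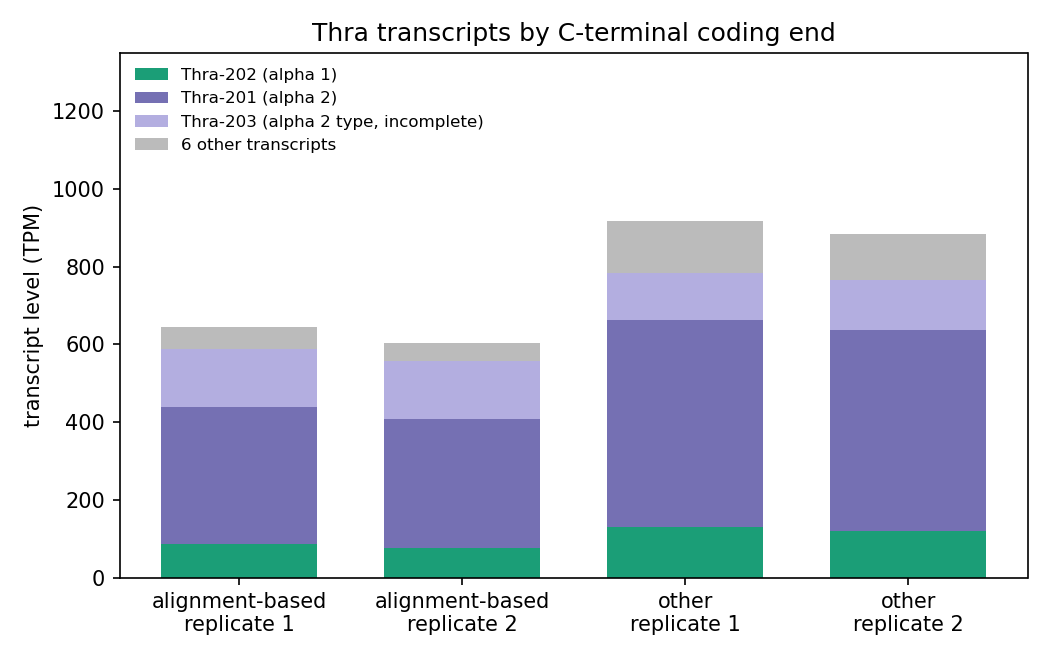
Stacked bars of TPM assigned to Thra transcripts in each library, for the alignment-based quantification and for the other quantification; colours mark the alpha 1 transcript, the alpha 2 transcripts and the 6 other transcripts. The alpha 1 part is the smallest of the 3 named transcripts in every bar except that of the other quantification of replicate 1, where Thra-203 is at 123 TPM and alpha 1 at 130 TPM.

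The excess of alpha 2 held in each way of counting that was tried, with different sizes. The other quantification put alpha 2 at 79.3 ± 0.852% of coding TPM (SD, n = 2) and at 5.24 ± 0.296 times alpha 1. That quantification also gave 46.7 and 43.7 TPM to the coding fragment Thra-208, which had 0 and 0.33 TPM in the alignment-based one. Without Thra-203, whose annotation is incomplete, Thra-201 was 4.16 ± 0.165 times Thra-202, and 4.22 ± 0.187 times in the other quantification. The 5 Thra transcripts with no coding range held 57.0 and 46.0 TPM.

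Nr1d1, the gene of the circadian repressor REV-ERB alpha, overlaps the alpha 2 end on the other strand. Its last exon covers 263 bases of the last exon of Thra-201, of which 197 are coding in both genes, and all 130 bases of the last exon of Thra-203. The end of alpha 1 does not overlap it. Nr1d1 stood at 15.9 and 19.9 TPM, far under the alpha 2 level, and the overlap is 10.7% of the length of Thra-201. The libraries were stranded per the name of the spike-in profile, and whether counting used strand was not stated in the sources used here. Nr1d1 was higher in replicate 2 by a log2 ratio of 0.42 (SE 0.0720, adjusted p = 9.52e-08 by the exact binomial test). There the TPM of Thra-201 was lower, 330 against 353, and so was that of Thra-202, without the overlap, 77.3 against 87.4. The TPM of Thra-203 was higher there, 150 against 147. Whether Nr1d1 had a part in these differences was not tested.

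Thrb was split among more transcripts, and its level depended on how they were counted. Thrb-202, with the beta 2 start, stood at 4.84 and 4.37 TPM, or 33.1 ± 3.20% of the gene (SD, n = 2). Thrb-201 and Thrb-203, with the beta 1 start, together made up 29.0 ± 10.4%. The forms did not separate in share, since the beta 1 forms held 21.6% in replicate 1 and 36.3% in replicate 2, beside 30.8% and 35.4% for Thrb-202. In the other quantification the order was reversed, with 27.3 ± 0.626% for Thrb-202 and 30.1 ± 1.60% for the beta 1 forms. The last exon of Thrb-202 runs 1531 bases beyond the end of Thrb-201, so reads from the far 3′ end can be assigned to Thrb-202 alone.

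Transcripts under 1000 bases took 47.6% and 28.3% of Thrb TPM, although they held few reads. On longer transcripts alone, an alternative chosen after seeing the data, Thrb stood at 8.23 and 8.86 TPM, and the log2 ratio of Thra over Thrb rose to 6.07. In the other quantification with all transcripts, Thrb stood at 23.3 ± 1.36 TPM and the ratio was 5.27. The counts of Thrb did not pass the test between the libraries, while its TPM was lower in replicate 2 with all transcripts and slightly higher there with long transcripts alone. The antisense gene Gm48321 within Thrb had 0 counts in each library.

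All 18 listed partners and coregulators of the receptors were detected, at a median of 38.2 TPM. The corepressor Ncor1 stood highest at 147 ± 1.44 TPM (SD, n = 2), followed by Nr2f1, an orphan receptor that can occupy the same DNA elements, at 102 ± 7.85. Hdac3, the histone deacetylase of corepressor complexes, stood at 55.2 ± 0.955 TPM. Of the retinoid X receptors, Rxrb stood at 42.0 ± 0.636 TPM, Rxrg at 12.6 ± 4.29 and Rxra lowest of the list at 4.05 ± 0.467. Between the libraries, 3 of the 18 were higher in replicate 2 and 2 lower, near the 13.9% and 12.8% of all tested genes, with a median log2 ratio of 0.00. Rxrg, known from the striatum, had the largest of these ratios at 0.81 (adjusted p = 1.87e-14, exact binomial test). Striatal markers were also higher in that library, and their part in the Rxrg difference was not tested.

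Of the target genes, Klf9 was present at moderate level and Hr at a lower one. Klf9 (ENSMUSG00000033863.2, chr19:23141226-23168134, plus strand) encodes a zinc finger transcription factor that T3 induces directly in brain. It had 1675 and 2027 counts and stood at 23.2 and 24.8 TPM, or 24.0 ± 1.12 TPM (SD, n = 2). Its log2 ratio was 0.17 (SE 0.0476; adjusted p = 0.00238, exact binomial test), a 1.13-fold difference. Its coding transcript of 244 codons made up 95.6 ± 0.114% of the gene.

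Hr (ENSMUSG00000022096.14, chr14:70552212-70573548, plus strand) encodes hairless, a corepressor that binds thyroid hormone receptors and that T3 induces in developing brain. It had 655 and 665 counts and stood at 9.14 and 6.75 TPM, or 7.95 ± 1.69 TPM (SD, n = 2). Its log2 ratio of counts was -0.08 (SE 0.0794, adjusted p = 0.513 by the exact binomial test), so the gap in TPM was not seen in counts. Transcripts under 1000 bases took 22.5% of Hr TPM in replicate 1 and 5.04% in replicate 2, and on longer transcripts Hr stood at 7.08 and 6.41 TPM. Klf9 exceeded Hr by 1.34 and 1.86 on the log2 scale of TPM, a mean of 1.60 ± 0.37, or 3.03-fold.

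Genes known to respond to thyroid hormone in brain, Hr and Klf9 among them, were nearly all expressed. Of 23 listed, 22 were detected, at a median of 9.05 TPM, and Nrgn, the gene of the synaptic protein neurogranin, stood highest at 310 ± 2.92 TPM (SD, n = 2). Cirbp, a cold-inducible RNA-binding protein gene, stood at 122 ± 11.7 TPM, Sema7a, a membrane-anchored semaphorin gene, at 72.9 ± 3.54 and Camk4, a calcium-dependent kinase gene, at 54.2 ± 0.0636. The lowest detected was Shh, a signalling protein gene, at 1.26 ± 0.0354 TPM.

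In this list 11 of 23 genes were higher in replicate 2 and none was lower, beside 13.9% and 12.8% of all tested genes. Among them were Klf9, Nrgn, Rasd2, Dbp, Kcnj10, Itih3, Kcna1, Scn4b, Aldh1a3 and Cirbp, and none of the 11 reached a 2-fold difference. The largest ratio was that of the sodium channel subunit gene Scn4b, at 0.83 from 29 and 56 counts. Rasd2, a striatal GTPase gene, had a log2 ratio of 0.65. The median log2 ratio of the list was 0.08. The list was not divided into genes that the hormone raises and genes that it lowers. These counts therefore do not measure a hormone response. The myelin gene Mbp had 1151 and 1163 counts and the hormone-responsive gene Hr 655 and 665, neither past the test. Markers of striatum, astrocytes and olfactory bulb were higher in the same library, and their part in these counts was not tested.

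Genes that run the axis outside the cortex were low or absent. Of 13 genes of hypothalamus, pituitary and thyroid gland, 4 were detected. Tshr, the receptor for thyrotropin, stood at 3.06 ± 0.339 TPM (SD, n = 2), Slc5a5, the sodium iodide symporter gene, at 2.15 ± 0.0778, Trhr, the receptor for thyrotropin-releasing hormone, at 2.05 ± 0.573, and Trh, the gene of that hormone, at 1.85 ± 0.870. Tshb and Cga, the thyrotropin subunit genes, had 0 counts in each library. Of 9 tested, Trh was the only gene that passed, with 27 and 61 counts and a log2 ratio of 1.06 (adjusted p = 0.00701, exact binomial test). Of all tested genes, 13.9% were higher in replicate 2.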

How the data were processed

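Total RNA from the left cortex of 2 mice was analysed, with 1 library each and replicate numbers from the labels. Expected counts, TPM, a posterior mean TPM and bounds of a TPM interval stand in the deposited gene table and in 1 transcript table, per the file headers. The deposited transcript table also gives each transcript's percent of its gene, per the file headers. A further deposited transcript table, called the other quantification, holds estimated counts and TPM. The mm10 assembly and GENCODE M21 annotation are named in the deposited notes. Not given in the sources used here are the aligner, the quantifiers, their versions, whether counting used strand and the coverage of the interval. Reads of Cast origin were set against mm10, and what this does to levels was not tested.

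The members and lists were chosen with earlier results of these data known. Levels are means ± SD over 2 libraries, and a gene was called detected at 1 TPM or more in each. Ratios within a library used log2(TPM + 0.1) and counted as called if their sign matched in the libraries and their mean was over 2 SD. Expected counts, rounded for the test, were scaled with TMM (edgeR 4.0.16, R 4.3.3), and genes with 10 or more counts were compared by a two-sided exact binomial test (scipy 1.17.1) with Benjamini-Hochberg adjustment and a threshold of 0.05. Log2 ratios used a prior count of 0.5, SEs come from the counts, and intervals span 1.96 SE. These cover counting error only, since PCR copies and the spread between animals are not in them. Alternatives were total count scaling, DESeq2 1.42.0 size factors, other filters and pseudocounts, the posterior mean, the other quantification, TPM over protein-coding genes and each library alone. All 9 members had whole expected counts at gene level.

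Named genes were the 9 members; in each pathway list up to 4 with the highest level, the lowest detected and any with a called 2-fold ratio; genes overlapping or beside a member on the other strand; marker genes with the highest level or a called 2-fold ratio; and the 5 genes most like Ttr. Further genes were named after their values were seen, among them Folr1, Kcne2, Kl, Rax, Cldn5, Flt1, Foxj1, Rasd2, Scn4b, Rxrg, Rxrb, Secisbp2 and Serpina7. Sequences were read from the mm10 genome along GENCODE M21 coding exons, and that of Ttr and the values of some listed genes are not reported here.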

Additional observations from a re-analysis of the deposited data

How the results depend on the processing

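The ratios within libraries kept their direction under every alternative run, and so did the calls of Ttr, Klf9, Crym and Slco1c1 between the libraries. Thra passed with total count scaling and with protein-coding genes alone, which gave 5 calls among the 9 genes in place of 4, and its ratio changed sign without passing in the other quantification. At 0.5 TPM in each library 9 genes were detected, and at 5 TPM 7 were, without Ttr and Dio3. The log2 ratio of Thra over Thrb moved from 5.47 to 5.27 with the other quantification and to 6.07 on transcripts of 1000 bases or more, the latter chosen after seeing the data, and single libraries gave 5.35 to 5.60. That of Dio2 over Dio3 moved from 3.24 to 2.32 with a pseudocount of 1 TPM, and single libraries gave 2.87 to 3.61. The alpha 2 share of Thra moved from 85.6% to 79.3% with the other quantification, to 78.6% of all Thra transcripts and to 80.6% with Thra-201 against Thra-202 alone, also chosen after seeing the data. Levels of the 9 genes were 1.19 to 1.66 times as high in the other quantification, beside a median of 1.48 over detected protein-coding genes, and they rose when TPM was taken over protein-coding genes, which held 53.5% and 52.6% of it. The cause of these moves was not tested. Depth limits Dio3, with 15 and 30 counts. No paired analysis was possible because there is 1 group only.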
